A study of Mus musculus with 30 samples.

Results

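The 8 genes described here were grouped by a link to vitamin A and its derivatives: Aldh1a1, Aldh1a7, Rdh16, Lrat, Rbp4, Ttr, Cyp26a1 and Rarb. The group includes a receptor, Rarb, and a paralog, Aldh1a7, whose action on retinoids was not tested. They were chosen by name, and their probes were found through the RefSeq transcript accession on the array, which gave 9 probes for 8 of 8 genes among 12187 named genes tested. Whole liver RNA came from 30 female mice of the C57BL/6 strain, each on its own 2-colour Agilent array. The 16 control mice are labelled only as having no treatment, so it is not stated whether they received the vehicle. The 14 exposed mice were given Printex 90, a nanosized carbon black powder, at 0.162 mg in a suspension of 40 µl instilled into the airways and followed by 150 µl of air. The vehicle was 0.9% NaCl in water with 10% cell-free lavage fluid of C57BL/6 mice, and the mice were acquired at 5 to 6 weeks of age. By their numbers, the animals of either group form 3 consecutive blocks, called runs here, with 6, 5 and 5 control and 4, 5 and 5 exposed mice. What sets a run apart is not in the labels, nor is the time after exposure, and the series text names 6 mice per treatment group. Liver RNA carried Cy5 on every array, and Cy3 marked a universal mouse reference RNA. A level is therefore a log2 ratio of liver over reference, and a difference is a difference of such ratios.

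The liver takes up retinol from the diet and stores most of it as retinyl esters in stellate cells. Hepatocytes release retinol into the blood bound to retinol-binding protein, which travels in a complex with transthyretin. Inside cells retinol is oxidised first to retinal and then to retinoic acid, which acts through nuclear receptors and is cleared by enzymes of the Cyp26 family.

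Among the 9 probes, the Cy5 signal exceeded background clearly on 30 of 30 arrays and saturated on none. The reference RNA gave less signal. Cy3 was well above background on 0 and 2 of 30 arrays for the 2 Lrat probes, on 26 for Ttr, on 27 for Cyp26a1 and on 30 for the others. All 8 hepatocyte markers with a probe, such as Alb, had Cy5 well above background on 30 arrays, as did 12 of 16 stellate cell markers, with the other 4 on 26 to 29. Arrays had median Cy5 signals of 104 to 196. Controls lay in positions 1 and 2 of a slide and exposed mice in positions 3 and 4, so position and group cannot be told apart. Run 1 mice always took the first of their group's positions on a slide, and run 3 mice the last.

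Aldh1a1 and Aldh1a7 are close paralogs that lie next to each other on chromosome 19, with 0 annotated genes between them. The 100 bases before their annotated starts (for Aldh1a1 the downstream of 2 starts) are shown because they differ at only 6 bases, in capitals, while Aldh1a1 passed the test in exposed run 1 and Aldh1a7 did not (the difference between the genes was not tested). They lie at chr19:20601868-20601967 on the plus strand and chr19:20727557-20727656 on the minus strand of GRCm38.p6 (RefSeq), are printed 5′ to 3′ on the gene's strand, and are 94% identical without gaps. The same stretch before the other annotated start of Aldh1a1 is 30% identical to that of Aldh1a7. No value here ties these sequences to the RNA levels.
Aldh1a1: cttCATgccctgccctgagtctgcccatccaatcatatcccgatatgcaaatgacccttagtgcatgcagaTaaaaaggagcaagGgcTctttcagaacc
Aldh1a7: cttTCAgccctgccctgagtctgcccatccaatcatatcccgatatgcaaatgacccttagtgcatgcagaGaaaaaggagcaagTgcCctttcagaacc
The array files used here give no probe sequence, so cross-hybridisation between the paralogs was not tested.

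Cyp26a1 and Rarb are textbook targets of retinoic acid, and the same stretch of each holds a DR5 element, the direct repeat with a spacer of 5 bases to which retinoic acid receptors bind. The element is in capitals below and was searched on both strands as pairs of the half-site AGGTCA in which the leading base may also be G and the base after the first G may also be T. The element lies on the opposite strand in Cyp26a1 and on the gene's strand in Rarb, and it ends 15 and 36 bases before the annotated start, respectively. The stretches lie at chr19:37697708-37697807 (plus strand) and chr14:16575477-16575576 (minus strand) of the same build.
Cyp26a1: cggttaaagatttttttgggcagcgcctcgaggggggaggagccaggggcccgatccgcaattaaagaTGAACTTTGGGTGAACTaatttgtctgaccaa
Rarb: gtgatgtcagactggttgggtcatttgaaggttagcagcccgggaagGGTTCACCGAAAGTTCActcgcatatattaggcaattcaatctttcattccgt
Of 32851 RefSeq promoter windows of 300 bases, 32 (0.0974%) hold such a repeat. Among the 9 windows of 7 members read here, which leave out Ttr, only these 2 did, and a match of letters is not evidence of binding.

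Over all animals, no member passed the test between exposed and control mice. The count was 0 of 8 genes at a Benjamini-Hochberg adjusted p under 0.05 by the moderated test of limma, and 0 of 8 had an unadjusted p under 0.05, while 0.0169% of all 23606 tested probes passed. The differences (exposed minus control) ran from -0.11 ± 0.22 (SE) for Ttr to 0.29 ± 0.17 for the brighter Lrat probe, with adjusted p from 0.524 to 0.999. The median over the 8 genes was 0.00, and over all tested probes it was 0.01. The width of the 95% intervals sets what could have been seen: for Rdh16 the interval was -0.20 to 0.20 and for Cyp26a1 -0.58 to 0.58.

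Exposed run 1 set itself apart from this, in 2 members with opposite directions. Aldh1a1, which oxidises retinal to retinoic acid, rose relative to the average of the control runs. The probe of Ttr, the plasma carrier of retinol-binding protein and thyroid hormone, read lower. These were 2 of 8 genes where 4.8% of all tested probes passed (1.6% higher, 3.19% lower). In exposed runs 2 and 3, 0 of 8 genes passed, with 0.0169% and 0.131% of probes passing. At an unadjusted p under 0.05 by limma there was 1 member in run 2, Aldh1a1 (-0.28 ± 0.10; adjusted p = 0.293), and 0 in run 3 with Lrat read from its brighter probe.

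**Figure D1:**
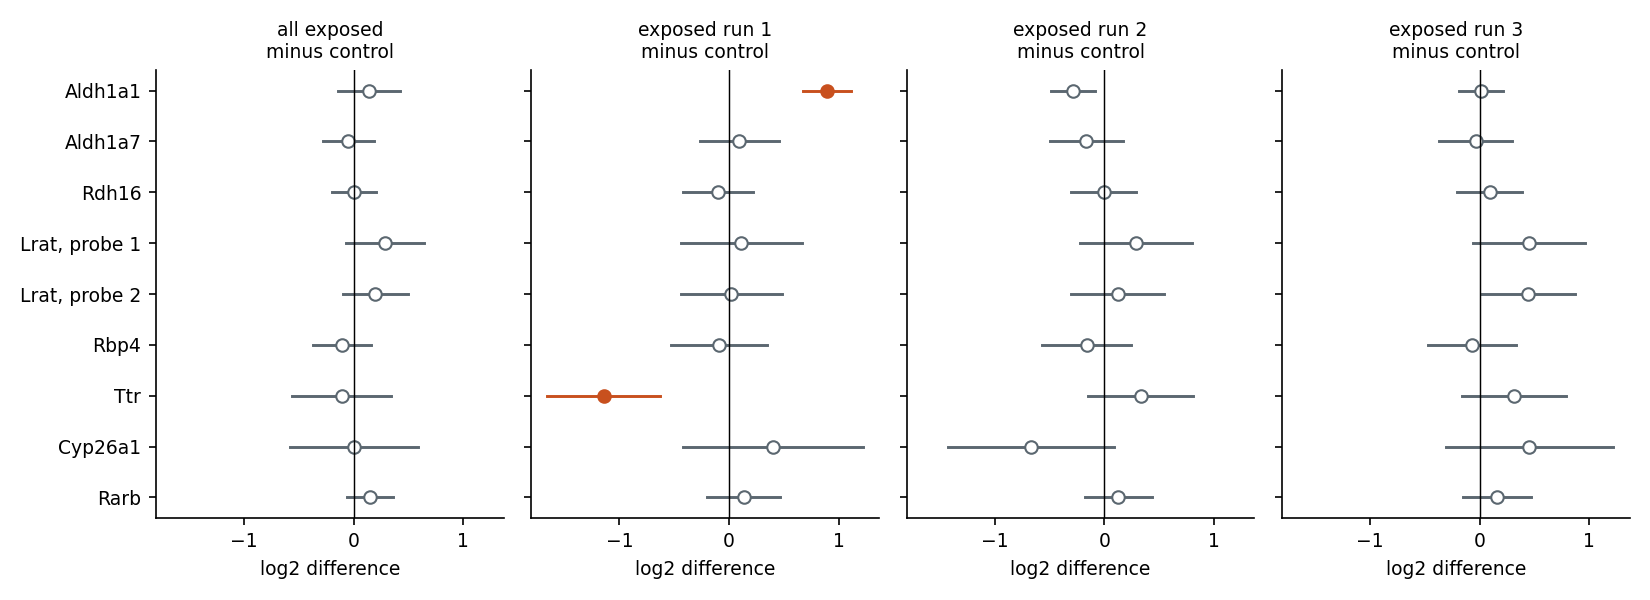
Log2 difference from controls for the 9 probes of the 8 genes, for all exposed mice and for each exposed run against the mean of the 3 control runs; circles are limma estimates, lines are 95% confidence intervals, and filled orange circles have an adjusted p under 0.05. Only Aldh1a1 (0.90) and Ttr (-1.14) in exposed run 1 are filled.

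Aldh1a1 (NM_013467) stood at log2 ratios of 6.47, 6.56, 6.37 and 6.05 in the 4 mice of exposed run 1. The other 26 mice lay between 4.83 and 5.90, with a median of 5.35. No mouse of exposed run 1 overlapped with any other animal, which held in the same direction for 0.11% of tested probes. The difference from the control mean was 0.90 ± 0.11 (SE; 95% interval 0.68 to 1.12; 1.86-fold; limma adjusted p = 2.53e-05). In these ratios each of the 4 mice was also above the mean of the 2 controls on its own slide, by 0.82, 0.91, 0.88 and 0.43.

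The remaining runs give the size of the ordinary variation in Aldh1a1. Exposed run 2 read 5.08, 5.24, 5.01, 5.00 and 5.35, and exposed run 3 read 5.48, 5.77, 5.44, 5.34 and 5.29. Control run 1 ranged from 5.24 to 5.90 with a median of 5.74, control run 2 read 5.10, 5.29, 5.34, 4.83 and 5.42, and control run 3 read 5.32, 5.64, 5.19, 5.67 and 5.46. Control run 1 was thus the highest of the control runs, 0.34 ± 0.10 above the other control runs (limma adjusted p = 0.324, 0 of 8 members where 0.0424% of probes passed). Among the 3 control runs 0 of 8 members passed, with 0.089% of probes passing and 1 member, Aldh1a1, at an unadjusted p of 0.00207. Among the 3 exposed runs Aldh1a1 and Ttr passed (adjusted p = 3.28e-05 and 0.00561), where 4.13% of probes did.

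Compared with control run 1 alone, Aldh1a1 in exposed run 1 was 0.67 ± 0.12 higher (limma adjusted p = 0.0213), 1 of 8 members where 0.246% of probes passed. That call ended without animal 176 (0.64; adjusted p = 0.0609) or 177 (0.60; adjusted p = 0.105), and in a fit that blocks on slide (0.62; adjusted p = 0.0745). The excess of exposed run 1 over exposed runs 2 and 3, less the same excess among controls, was 0.69 ± 0.15 (unadjusted p = 8.31e-05, adjusted p = 0.31 by limma). In that test of the difference between groups 0 of 8 members and 0% of probes passed. Exposed run 1 exceeded exposed runs 2 and 3 by 1.03 ± 0.11 (adjusted p = 6.63e-06), where 6.61% of probes passed.

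**Figure D2:**
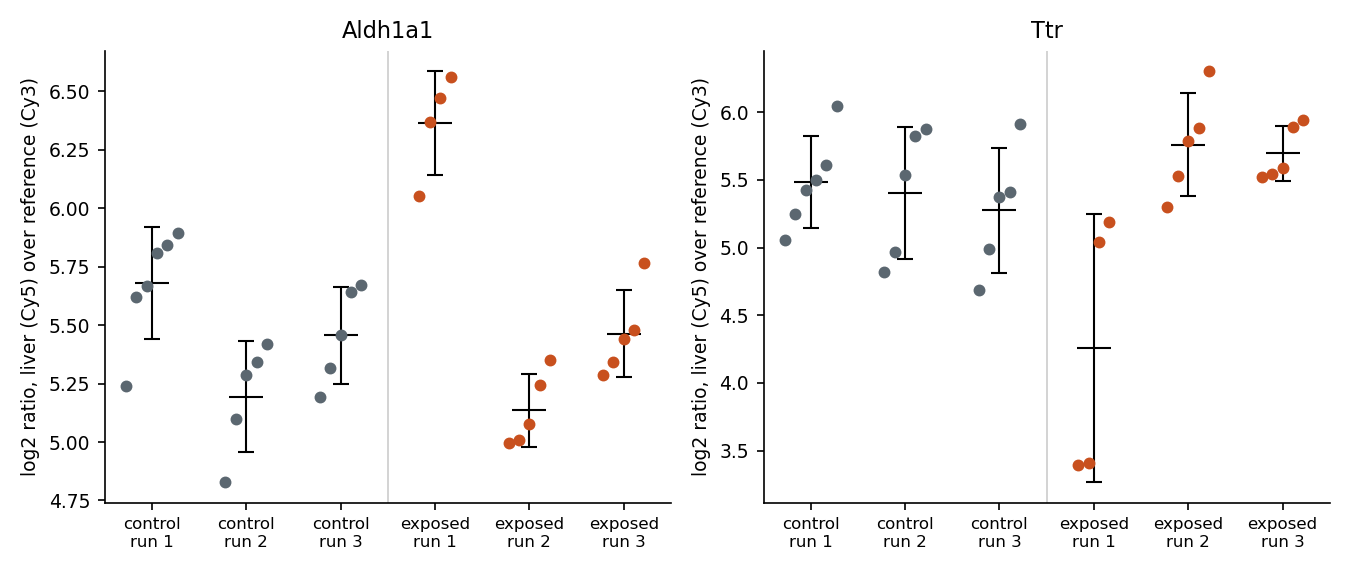
Log2 ratio of liver (Cy5) over reference (Cy3) in each mouse, by run, for Aldh1a1 and Ttr; points are single mice, sorted by value within a run, bars are mean and SD. For Aldh1a1 the mice of exposed run 1 lie between 6.05 and 6.56, above all others, and for Ttr 2 of the 4 lie near 3.4, below all others.

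Ttr (NM_013697) read 3.41, 5.19, 3.39 and 5.04 in animals 176, 177, 179 and 180 of exposed run 1. The other 26 mice lay between 4.69 and 6.30 with a median of 5.53. In these ratios animals 176 and 179 were below all others, while 177 and 180 lay within the range of the other mice. The difference from the control mean was -1.14 ± 0.25 (SE; 95% interval -1.66 to -0.63; 2.21-fold lower; limma adjusted p = 0.00802). It no longer passed without animal 176 (-0.82; adjusted p = 0.0893) or 179 (-0.89; adjusted p = 0.0589), or with array position as a term (-1.10; adjusted p = 0.0836). Against the other exposed runs the difference was -1.47 ± 0.27 (adjusted p = 0.00168), and against control run 1 alone it was -1.21 ± 0.29 (adjusted p = 0.0657). The excess of exposed run 1, less the same excess among controls, was -1.57 ± 0.35 (adjusted p = 0.31).

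The direction of the Ttr difference depended on the processing, and its reference signal was faint. Cy3 was not well above background in animals 176 and 179 of exposed run 1 and in controls 572 and 596. The median Cy3 signal of the Ttr spot was 43, 47, 33 and 49 in exposed run 1 and 37.5 to 189 in the other mice. With the scanner software's processed signals of both dyes, the difference turned to 0.58 ± 0.23 (adjusted p = 0.109). Ratios of the deposited value table gave -0.81 ± 0.21 (adjusted p = 0.0185).

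The liver dye alone gave a picture without the reference. Quantile-normalised log2 Cy5 of Ttr was 11.06, 11.44, 9.55 and 11.28 in exposed run 1, and 11.60 to 13.11 in the other 26 mice. All 4 mice were below every other animal on this scale, which held for 0.0593% of tested probes. The difference was -1.45 ± 0.23 (limma adjusted p = 0.000386), where 3.67% of probes passed. With the processed Cy5 signal alone, the difference was -1.18 ± 0.19 (adjusted p = 0.000387). Before any normalisation, the median Cy5 signal of the spot was 1618, 2450, 693.5 and 2115 against 2097.5 to 12701 in the other mice, so these raw values overlapped. Relative to the mean of the 2 controls on the same slide, the liver dye differed by -2.99 to -0.44 in the 4 mice. The loess ratios differed from those controls by -2.35, -0.12, -1.66 and -0.62 in animals 176, 177, 179 and 180.

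**Figure D3:**
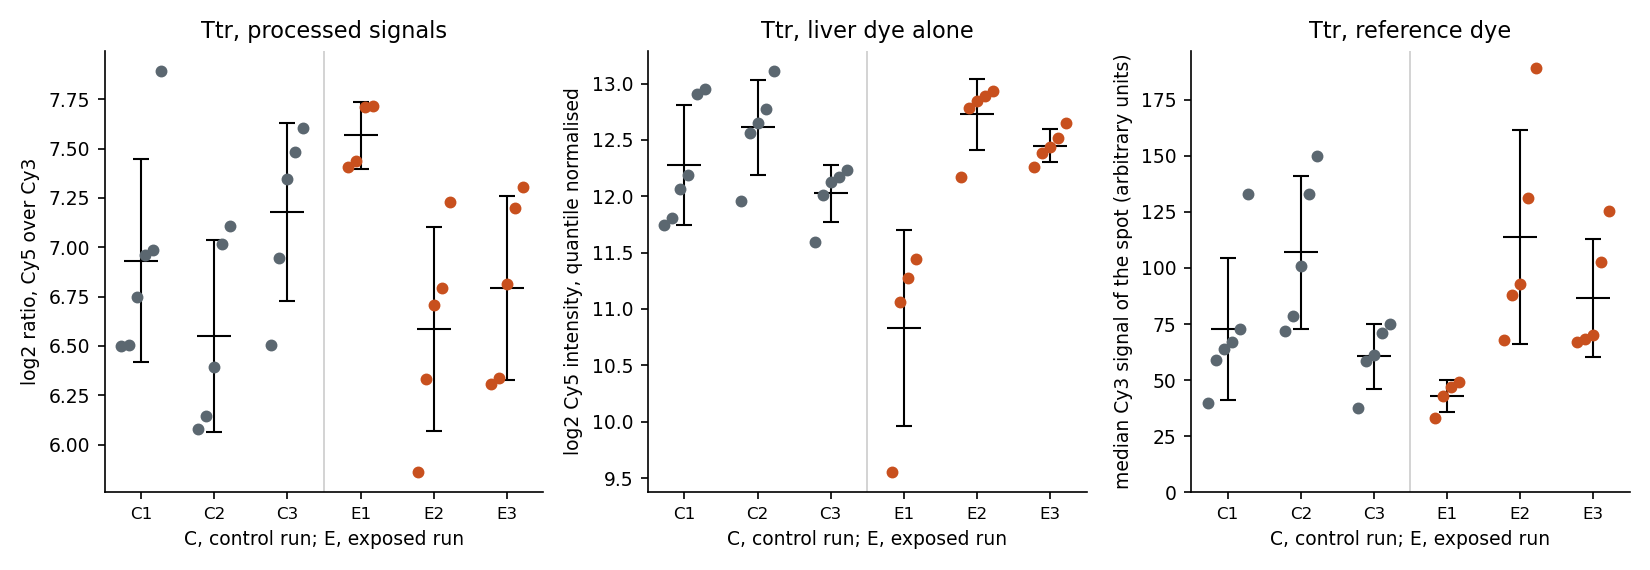
Ttr in each mouse by run (C, control; E, exposed) from the processed ratio, from the quantile-normalised liver dye alone and as the unnormalised Cy3 signal of the reference; points are mice, sorted by value within a run, bars are mean and SD. In the liver dye the 4 mice of exposed run 1 lie between 9.55 and 11.44, below all others, whereas their processed ratios lie inside the range of the other mice.

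For Aldh1a1 the same scales gave differences in 1 direction. They were 1.16 ± 0.15 with processed ratios (adjusted p = 7.47e-05), 1.02 ± 0.12 with the value table (adjusted p = 1.14e-05) and 0.92 ± 0.20 in the liver dye alone (adjusted p = 0.00673). In the liver dye the mice read 16.91, 16.60, 15.90 and 16.30 against 13.82 to 16.13 in the others, so that animal 179 overlapped with them. The reference dye differed by 0.02 ± 0.17 for Aldh1a1 and by -0.24 ± 0.20 for Ttr in exposed run 1 (adjusted p = 0.972 and 0.717). Blocking on slide, Aldh1a1 stood at 0.84 (adjusted p = 0.000957) and Ttr at -1.17 (adjusted p = 0.0323).

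Other features of exposed run 1 moved with these genes, and their part in the result was not tested. Of 15 target genes of the nuclear receptor CAR, 5 rose and 0 fell in exposed run 1, where 1.6% of all probes rose, with the mean log2 ratio of the list between 3.42 and 4.30, against 2.58 to 3.81 in controls. Control run 1 was also higher in 3 of 15 than the other control runs, among them Cyp2b10 (1.97 ± 0.25; limma adjusted p = 9.74e-05), and 0 of 15 passed between exposed run 1 and control run 1. Of 16 stellate cell markers 0 rose and 4 fell, where 3.19% of all probes fell, with list means of -0.34 to 0.30 against -0.23 to 0.58. Lrat, also a stellate cell marker but not on that list, stood at 0.11 ± 0.27 by its brighter probe. For 11 sinusoidal endothelial markers 0 passed, at a median difference of -0.34, with list means of 2.25 to 3.17 against 2.35 to 3.55. Medians were -0.23 for 10 Kupffer cell, -0.21 for 7 lymphocyte, -0.10 for 8 hepatocyte and 0.27 for 3 neutrophil markers, with 0 passing in each. Of 7 cholangiocyte markers 1 fell (median -0.11). In whole liver RNA, fewer cells of a type and less RNA per cell cannot be told apart. Of 9 other plasma protein genes known to fall in the acute phase, such as Alb, 0 rose and 0 fell (median -0.08; median of all probes -0.01). Their list means in exposed run 1, 5.49 to 5.68, lay within the 4.91 to 6.41 of the controls. Lcn2 (3.02 ± 0.38; adjusted p = 4.35e-05) and Saa3 (2.95 ± 0.48; adjusted p = 0.00054), which are known to rise in the acute phase, were higher in exposed run 1. Both were named after their values were seen, and no list of such genes was tested. Against control run 1 alone Lcn2 and Saa3 stood at 2.03 ± 0.43 (adjusted p = 0.0374) and 2.08 ± 0.54 (adjusted p = 0.102).

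Aldh1a7 (NM_011921), the neighbour and paralog of Aldh1a1, did not pass in any exposed run by its ratio. Exposed run 1 read 5.57, 6.25, 6.01 and 6.07, inside the 5.00 to 6.44 of the other 26 mice. The difference of 0.09 ± 0.18 had a 95% interval from -0.27 to 0.45. With the processed liver dye alone, Aldh1a7 stood at 0.37 and passed (adjusted p = 0.034). It also passed among the exposed runs in the liver dye alone (adjusted p = 0.042). In runs 2 and 3 its differences were -0.17 ± 0.16 and -0.04 ± 0.16.

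Rdh16 (NM_009040), a short-chain dehydrogenase that oxidises retinol to retinal, read 3.48, 4.18, 4.07 and 4.15 in exposed run 1. The 16 controls lay between 3.30 and 4.48, with a median of 4.07. Its difference was -0.10 ± 0.16 in exposed run 1, 0.00 ± 0.14 in run 2 and 0.09 ± 0.14 in run 3. Animal 176 had the lowest ratio of the exposed mice, but in the liver dye alone it was the highest of its run, at 11.80.

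Lrat (NM_023624) makes retinyl esters for storage and is a marker of stellate cells. Its brighter probe read 1.43, 3.14, 3.18 and 2.72 in exposed run 1, within the 1.36 to 3.83 of the remaining mice. The 16 controls ranged from 1.36 to 3.25, with a median of 2.63, and the 14 exposed mice from 1.43 to 3.83, with a median of 2.94. Exposed run 3 gave the highest difference for both probes, 0.45 ± 0.25 and 0.44 ± 0.21, with adjusted p of 0.446 and 0.358. On 6 of the 7 slides that held both groups the brighter probe was higher in exposed mice, and on 4 of 7 for the other probe. With a reference signal at background, the Lrat ratios have only a bound in their denominator.

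Rbp4 (NM_011255), the plasma carrier of retinol made by hepatocytes, read 5.97, 5.91, 5.69 and 6.26 in exposed run 1. Controls ranged from 5.22 to 6.89, with a median of 6.16, and exposed mice from 5.57 to 6.59, with a median of 5.84. The groups overlapped throughout, and Rbp4, whose protein binds that of Ttr, passed in no exposed run. Its difference in exposed run 1 was -0.09 ± 0.21 (95% interval -0.53 to 0.35). The direction turned to 0.24 with processed ratios and to 0.18 in the liver dye alone (adjusted p = 0.561 and 0.449), the latter on tied values at the top of the scale.

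Cyp26a1 (NM_007811), which clears retinoic acid, was the most variable member. Controls spanned 2.98 to 6.24 (9.55-fold), with a median of 4.36, and exposed mice 3.26 to 6.04 (6.88-fold), with a median of 4.46. The SD within runs was 0.82, higher than in 99.8% of tested probes, whose median was 0.18. Exposed run 1 read 4.02, 5.19, 4.63 and 5.60. Exposed run 2 was lower at 4.32, 3.26, 4.47, 3.48 and 3.41, while exposed run 3 spread over 6.04, 4.84, 4.45, 5.56 and 3.54. None of the differences from controls passed, with 0.40 ± 0.40, -0.67 ± 0.37 and 0.45 ± 0.37 in runs 1, 2 and 3 (adjusted p = 0.656, 0.537 and 0.641).

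Rarb (NM_011243), a retinoic acid receptor, was printed 10 times on each array. The SD between the 10 spots of an array had a median of 0.10, which covers spot noise only and not labelling or hybridisation. The SD of the spot means between the 30 animals was 0.33. Controls ranged from 1.36 to 2.44, with a median of 1.87, and exposed mice from 1.38 to 2.67, with a median of 1.98. Exposed run 1 read 1.38, 2.67, 1.84 and 2.22 and overlapped with all other runs. The differences were 0.13 ± 0.16, 0.13 ± 0.15 and 0.16 ± 0.15 in exposed runs 1, 2 and 3. Of 31 genes whose promoter window holds a DR5 repeat, 6 were tested, Cyp26a1 and Rarb among them, and 0 passed in exposed run 1, where 4.8% of all probes did. So few genes say nothing about retinoic acid targets as a group.

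**Figure D4:**
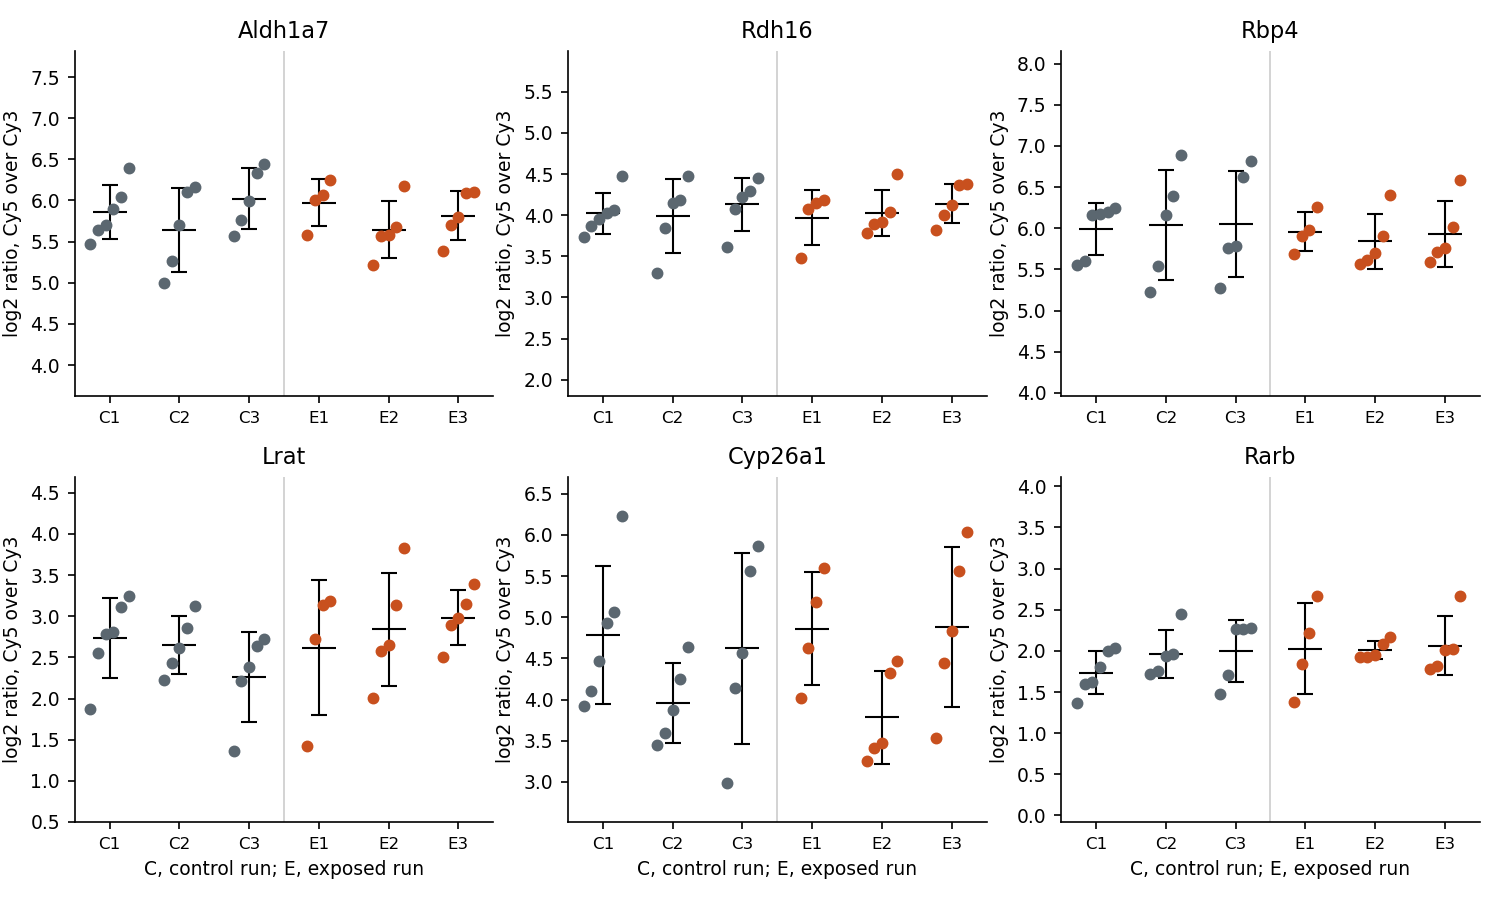
Log2 ratio of liver over reference in each mouse by run (C, control; E, exposed) for the 6 remaining genes, with the brighter of the 2 Lrat probes; points are mice, sorted by value within a run, bars are mean and SD, and all panels span the same range. Exposed run 1 overlaps with the controls in every panel, and Cyp26a1 has the widest spread.

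Spread within runs differed between members. It was above the median of all tested probes for every member, at 0.21 for Aldh1a1 (67.9th percentile), 0.32 for Rdh16 (88.5th), 0.34 for Rarb (90.2nd), 0.37 for Aldh1a7 (92.3rd), 0.47 for Rbp4 (96.5th), 0.50 for Ttr (97.4th) and 0.55 for the brighter Lrat probe (98.3rd). Aldh1a1 had the smallest spread of the 8 genes.

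The ratios of Aldh1a7, Rdh16 and Rbp4 followed a level shared by the liver-high probes of an array. The level was taken as the median log2 ratio of the 500 tested probes with the highest liver-to-reference ratio, members left out. It ranged from 4.62 to 5.93 in controls and 4.92 to 5.75 in exposed mice. Over 30 mice it correlated with Aldh1a7 at Pearson r = 0.94 (rho = 0.95; adjusted permutation p = 3e-05, from the smallest p that 100000 permutations can give). For Rdh16 r was 0.90 (rho = 0.89) and for Rbp4 0.85 (rho = 0.83), both at the same p over 9 probes compared. Without the 2 arrays farthest from the median level, r was 0.91, 0.88 and 0.82. Within slides it was 0.92, 0.89 and 0.87. The p-values are against no relation at all. How many other liver-high probes reach such r was not counted, so the values do not set these members apart.

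In the liver dye alone, Aldh1a7 and Rdh16 had r of 0.04 and 0.07 with that level. Rbp4 is not read there, since its signal lies at the top of the quantile scale, where many mice share 1 value. Aldh1a7, Rdh16 and Rbp4 also correlated with each other as ratios (r = 0.84 for Aldh1a7 with Rdh16, 0.76 for Aldh1a7 with Rbp4 and 0.75 for Rdh16 with Rbp4), while Aldh1a7 and Rdh16 had r = -0.08 in the liver dye. For Aldh1a1 r with the level was 0.31 (rho = 0.39; adjusted permutation p = 0.149 for r and 0.0516 for rho) and 0.09 within slides. For Ttr it was 0.27 (rho = 0.27; adjusted permutation p = 0.198 and 0.191) and 0.52 within slides. Whether these differ from the values of the other genes was not tested. With the level as a covariate, exposed run 1 differed from controls by 0.89 ± 0.10 for Aldh1a1 (adjusted p = 8.8e-06) and by -1.15 ± 0.22 for Ttr (adjusted p = 0.00196).

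**Figure D5:**
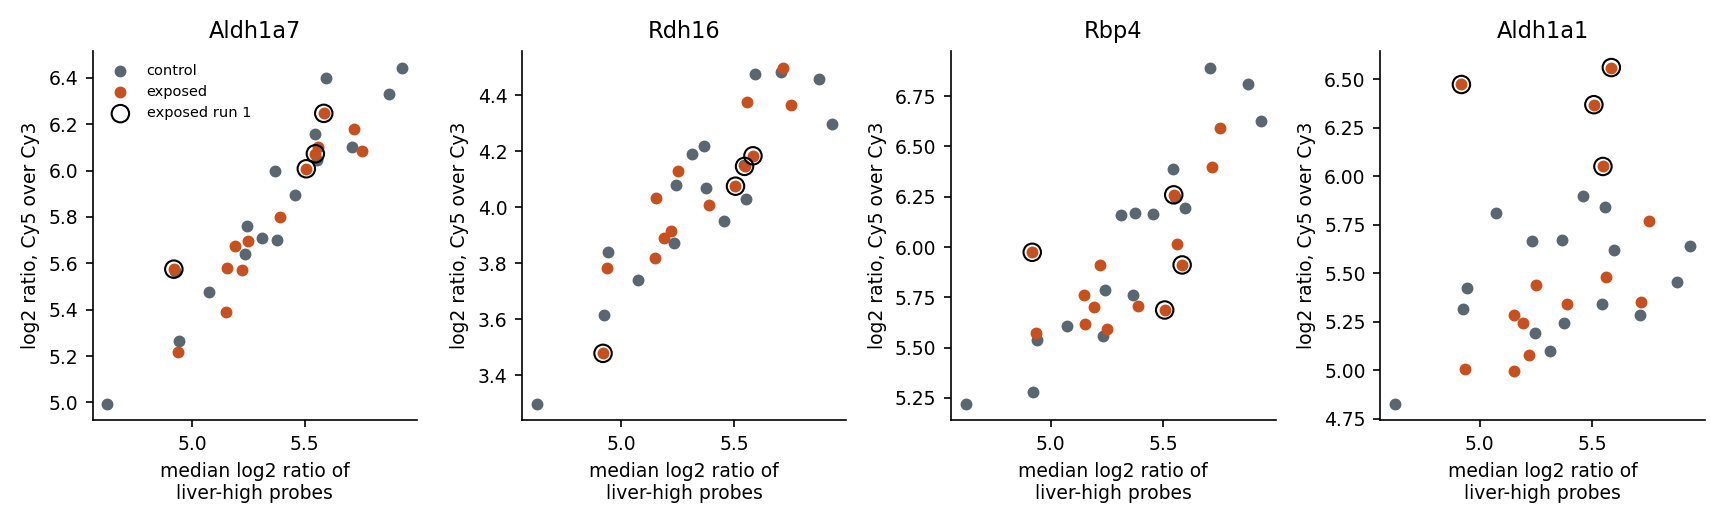
Log2 ratio of 4 members in each mouse (y axis) against the array's median log2 ratio over the 500 probes with the highest liver-to-reference ratio (x axis); circles mark the 4 mice of exposed run 1. Aldh1a7, Rdh16 and Rbp4 rise with the level (r = 0.94, 0.90 and 0.85), and Aldh1a1 in exposed run 1 lies above the other mice at any level.

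The genes with profiles most like each member over the 30 mice, among 12186 others, are given as a description. For Aldh1a1 they were Ugdh, which makes UDP-glucuronic acid (r = 0.88), Entpd5 (0.83) and Tmem97 (0.83), with 0.56, 0.59 and 0.54 in the liver dye alone and 0.52, 0.59 and 0.58 within runs. For Ttr they were Dnase2b (0.89), Clec1b (0.86) and Nostrin (0.86), with 0.55, 0.73 and 0.68 in the liver dye alone and 0.89, 0.83 and 0.84 within runs. For Lrat they were Steap4, Stxbp6 and Pank1 (0.80 each), for Cyp26a1 the hormone-sensitive lipase Lipe (0.66), Plekha8 (0.63) and Abhd15 (0.62), and for Rarb Adprm (0.70), Mpi (0.66) and Tkfc (0.65). For Aldh1a7 they included Cyp2a12 (0.96) and Acsm1 (0.96), for Rbp4 Slc26a1, Apoc1 (0.92 each) and Apof (0.91), and for Rdh16 the Kupffer cell genes Cd5l (0.93) and Clec4f (0.93) and Pipox (0.92). The profiles share the arrays and the level described above. In the liver dye alone r was 0.13 for Aldh1a7 with Cyp2a12, 0.51 with Acsm1, 0.40, 0.44 and 0.21 for Rdh16 with Cd5l, Clec4f and Pipox, and -0.57, 0.49 and 0.38 for Rbp4 with Slc26a1, Apoc1 and Apof, the last 3 on tied values of Rbp4. For Lrat it was 0.53, 0.45 and 0.38, for Cyp26a1 0.58, 0.40 and 0.47, and for Rarb 0.25, 0.28 and 0.42, in the order named.

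The wider retinoid pathway was read from a list of 45 further genes, of which 43 had a probe and 36 were tested. Over all animals 0 of 36 passed (median difference 0.04; 0.01 for all probes). The smallest p belonged to Dgat1, an acyltransferase that can esterify retinol (0.15 ± 0.04; adjusted p = 0.146). It was followed by the retinal reductase Dhrs4 (0.21 ± 0.06; adjusted p = 0.16), the retinaldehyde dehydrogenase Aldh1a2 (-0.15 ± 0.06; adjusted p = 0.3) and the retinal reductase Rdh11 (0.18 ± 0.08; adjusted p = 0.373), none of which passed. In exposed run 1, 1 of 36 passed, where 4.8% of all probes did. With the processed ratios 6 of 36 passed (8.4% of all probes), and in the liver dye alone 2 of 36 (3.67%).

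That gene was Retsat, the retinol saturase, which read 3.21, 3.40, 3.04 and 3.17 in exposed run 1. Its difference from the control mean was 0.48 ± 0.09 (limma adjusted p = 0.0022), and 0.90 in the liver dye alone (adjusted p = 0.00056). The other mice ranged from 2.09 to 3.16, so the groups overlapped. Retsat also varied among the control runs (adjusted p = 0.0234), with means of 2.89, 2.40 and 2.93 in runs 1, 2 and 3. Against control run 1 alone 0 of the 36 genes passed, Retsat included, where 0.246% of all probes did. In that comparison 1 of 36 passed with processed ratios and 0 in the liver dye alone. Among the next in exposed run 1 were Aox1, an aldehyde oxidase (0.41 ± 0.12; adjusted p = 0.0501), and Dhrs4 (0.23 ± 0.08; adjusted p = 0.106), neither of which passed. With processed ratios Aox1 (0.62; adjusted p = 0.00305), Dhrs4 (0.40; adjusted p = 0.00506), Adh5, an alcohol dehydrogenase (0.38; adjusted p = 0.00917), Aldh1a2 (-0.80; adjusted p = 0.01) and Rdh11 (0.47; adjusted p = 0.0189) passed beside Retsat, and in the liver dye alone none of those 5 did.

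In exposed run 3, Dhrs4 was 0.36 ± 0.08 above the control mean (adjusted p = 0.0489), and it did not pass with processed ratios (0.26; adjusted p = 0.222). Bco1, which cleaves beta-carotene to retinal, differed among the exposed runs (adjusted p = 0.0182), with means of 1.42, 2.23 and 2.11 in runs 1, 2 and 3. Its reference dye exceeded background clearly on 1 of 30 arrays, while with processed ratios it did not pass (adjusted p = 0.992). Rxrb, a partner receptor of the retinoic acid receptors, was lower in exposed run 1 than in the other exposed runs (-0.23 ± 0.06; adjusted p = 0.0295), and did not pass in the liver dye alone (0.05; adjusted p = 0.89).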

How the data were processed

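The members and gene lists were chosen with earlier results of these data known. The deposited scanner files give median intensity and background per spot in both dyes, which the authors obtained from Agilent Feature Extraction 10.7.3.1 on 25 arrays and 10.1.1.1 on 5 arrays, per the file headers. They also hold a log10 ratio of the dyes, per the file headers. The deposited value table of the series holds log2 ratios, checked against the scanner values of each array (r from 0.979 to 0.993); its column medians lay between -0.045 and -0.021, and its normalisation is not given in the sources used here.

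Intensities were corrected with normexp (offset 50) and loess-normalised within arrays, with control spots at weight 0 and outlier spots missing (limma 3.58.1, R 4.3.3). Spots of a probe were averaged. Symbols came from RefSeq accessions (matched for 24375 of 41174 probes, build GRCm38.p6); a gene outside the members is read from its tested probe of highest mean Cy5. A probe was tested if at least 14 of 30 arrays had Cy5 well above background and at most 6 lacked a value, 23606 in all. Limma was fitted to all arrays, either as 2 groups or as 6 run means, where a gap of more than 10 in animal number starts a run, with slide (9) as a random block (correlation 0.159 and 0.147). Adjusted p-values are Benjamini-Hochberg over all tested probes, two-sided, with a threshold of 0.05. Correlations have two-sided permutation p-values.

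On simulated data for exposed run 1 against control runs over 23606 probes, 98% of changes of 1 and 71% of changes of 0.5 on the log2 scale were recovered, with 11 false among 180 calls. The changed probes were drawn at random, with noise independent between probes and no differences between runs. Every member spread more within runs than the median probe, so these shares do not apply to the members. The number of arrays limits the precision. Named genes are all members, the list genes past the threshold or with the 4 smallest p, and the 3 nearest profiles of each member; 2 genes this rule names are not reported here. Alternatives are other signals, normalisations, filters, blocks, covariates and animals left out. The processed liver dye alone and the array level as a covariate were chosen after seeing the data.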

Additional observations from a re-analysis of the deposited data

Results flagged for a closer look

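In runs of 4 to 6 mice, 54 sets of member values were searched for a single mouse far from the others. Of these 2 stood out, no larger a share than the about 1 in 20 that chance gives. Rdh16 in animal 176 of exposed run 1 read 3.48, against 4.07 to 4.18 in the other mice of the run. In the liver dye alone animal 176 was instead the highest of the run, at 11.80 against 11.23, 11.59 and 11.54. The level of the liver-high probes on its array was 4.92, against 5.58, 5.51 and 5.55. Rarb in animal 212 of exposed run 3 read 2.67, against 1.78 to 2.02.

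The exposed runs differed from each other in 2 members. Exposed run 1 exceeded exposed runs 2 and 3 by 1.03 ± 0.11 for Aldh1a1 (limma adjusted p = 6.63e-06, each mouse above all 10 of the others) and stood at -1.47 ± 0.27 for Ttr (adjusted p = 0.00168). The labels do not say in what the runs differ.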

How the results depend on the processing

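Counts of members past the threshold were 0 in every alternative and with each animal left out for exposed against control, among control runs, and for exposed runs 2 and 3 against the control mean. Among exposed runs the count of 2 became 1 with processed signals, slide as a fixed block, array position as a term, or only probes with both dyes above background on all arrays, rose to 3 with the liver dye alone or the processed liver dye alone, where Aldh1a7 passed too, and ranged from 1 to 2 with 1 animal left out (1 without animal 176). For exposed run 1 against the control mean the count of 2 became 1 with processed signals, array position or both dyes above background. It rose to 3 with the processed liver dye alone (Aldh1a7 added), and ranged from 1 to 2 with 1 animal left out (1 without 176 or 179). The filter on both dyes removed Ttr, so in both comparisons the count fell there without a test of Ttr. Against control run 1 the count of 1 became 2 with the processed liver dye alone or the array level as a covariate, and 0 with slide as a fixed block or without the older software version; it ranged from 0 to 2 with 1 animal left out (0 without 176 or 177, 2 without control 551).

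Aldh1a1 in exposed run 1 stayed between 0.82 and 1.31, and passed, in all 17 alternatives. Its excess over control run 1 did not pass with median centring (1.07), the liver dye alone (0.61) or without the older software version (0.60), while Ttr passed there with median centring (-1.12) and the liver dye alone (-1.40).

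Signs turned for values that did not pass, apart from Ttr in exposed run 1 with processed signals (0.58; 0.54 against control run 1; 0.69 for the run by group difference). Over all animals Aldh1a1 was -0.014 in the liver dye alone and -0.15 without exposed run 1. Rbp4 was 0.18 in the liver dye and 0.13 in the processed liver dye. Ttr was 0.039 with processed signals and 0.31 without exposed run 1, and ranged from -0.17 to 0.048 with 1 animal left out. Cyp26a1 was -0.38 with processed signals, -0.073 in the liver dye, -0.072 in the processed liver dye, -0.011 with slide fixed, -0.0024 with scan run, -0.0019 with position, -0.020 with array weights, -0.29 with a clock score and -0.13 without exposed run 1, and ranged from -0.10 to 0.13 with 1 animal left out. Rdh16 was -0.11 with processed signals, -0.014 with the value table, -0.0044 without background correction, -0.0026 with position and -0.0038 as a mean of run means, and ranged from -0.047 to 0.055 with 1 animal left out.

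In exposed run 1 Aldh1a7 was -0.0029 with position. Rbp4 was 0.24 with processed signals, 0.041 with the value table, 0.32 with median centring, 0.18 in the liver dye, 0.39 in the processed liver dye and 0.035 with a clock score. Rdh16 was 0.093 with processed signals, 0.061 with the value table, 0.039 without background correction and 0.022 with median centring. With 1 animal left out, Lrat ranged from -0.095 to 0.56, Rdh16 from -0.17 to 0.078 and Rarb from -0.036 to 0.36. The causes were not tested.

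No paired analysis was possible because the labels give exposed and control animals no shared numbers, so slides shared by both groups were used instead, as a fixed block. Faint reference signal limits the ratios of Lrat, Ttr and Cyp26a1, and 4 mice in exposed run 1 limit its precision. Run and array position overlap only in part, since run 2 mice lay in both positions; with position as a term Aldh1a1 in exposed run 1 was 0.88 (adjusted p = 0.00122).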
